A study of Mus musculus with 6 samples.

Results

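The genes described here encode the eukaryotic translation initiation factors (eIFs), measured in the livers of F1 female mice. They were chosen by symbol, as every gene of the expression table whose name is Eif, a digit from 1 to 6 and a suffix, which gave 50 of 17624 genes. Eif1 itself was selected from its difference between the groups compared here, so its difference is a description, and neither it nor a call of Eif1 supports anything here. Another 6 annotated mouse symbols of this form, Eif2b1, Eif2c5, Eif2s3y, Eif3a, Eif4e1b and Eif5a2, were not analysed here.

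Hepatic mRNA was measured by RNA-seq in 3 conF1-F and 3 iAsF1-F mice, all C57BL/6 females. Fathers of the iAsF1-F mice drank water with inorganic arsenic (iAs) before mating with unexposed females, the fathers of the conF1-F mice did not, and none of the F1 mice drank iAs themselves. The labels place the collection at feeding status, whereas the study's text speaks of refeeding for the RNA-seq livers. It describes measurements on distinct mice or litters and an RNA-seq experiment performed once, so litter and father cannot be told apart from the paternal exposure. The deposited unit is RPKM, in which reads are divided by transcript length and by the mapped reads of the library, which puts levels of genes on a scale per length. The value of 30 of the 50 genes is, by its decimals, a mean over 2 or more entries, so levels of different genes are also given summed over entries where the order changes.

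Initiation brings the small ribosomal subunit, the initiator tRNA and the mRNA together and ends when the large subunit joins at the start codon. eIF1 and eIF1A hold the small subunit in a state that can scan and guard the choice of start codon, eIF2 delivers the initiator tRNA, eIF3 is the scaffold of the complex, and the eIF4 group recognises the cap and unwinds the 5′ leader. eIF5 and eIF5B act when the start codon is found, and the liver, which secretes most plasma proteins, makes heavy use of the whole pathway.

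The level of Eif1 was far lower in iAsF1-F than in conF1-F livers, the difference for which it was selected. Of the 39 other initiation factor genes tested, 0 passed the test used. Eif1 mRNA lay at 39.5, 48.9 and 45.8 RPKM in the conF1-F livers and at 6.33, 4.61 and 4.12 RPKM in the iAsF1-F livers. The groups did not overlap, and the lowest conF1-F liver was 6.24 times the highest iAsF1-F liver. Means were 44.7 ± 4.80 RPKM (SD, n = 3) and 5.02 ± 1.16 RPKM (SD, n = 3), a ratio of 8.91. On the log2(RPKM + 1) scale the difference, iAsF1-F minus conF1-F, was -2.94 (SE 0.17). Among the 50 genes Eif1 ranked 2 by mean RPKM as deposited in conF1-F and 23 in iAsF1-F. Over all 6 livers it ranked 7 as deposited and 14 when levels were summed over entries.

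Some properties of the libraries bear on these values. The number of reads is unknown, and the depth estimated from the lowest values lay between 67.0% and 100% of the deepest library. The hepatocyte markers (6 of 6 in the table) summed to 33517 to 39689 RPKM in conF1-F and 35492 to 40674 RPKM in iAsF1-F. Most of this sum was Alb, at means of 32454 RPKM in conF1-F and 32938 RPKM in iAsF1-F, so it says little about the others. Erythroid markers (5 of 5) summed to 372 to 647 RPKM in conF1-F and 237 to 367 RPKM in iAsF1-F, which do not overlap, and the single T and B cell marker in the table of 5 lay at 0 to 0.132 RPKM and 0.210 to 0.889 RPKM. Their part in the Eif1 difference was not tested. The ranges of the groups overlapped for Kupffer cell and macrophage markers (5 of 6, 106 to 272 and 69.8 to 218 RPKM), sinusoidal endothelium (4 of 5, 14.6 to 19.0 and 3.45 to 20.3 RPKM), stellate cells (5 of 5, 29.8 to 52.0 and 38.7 to 44.8 RPKM) and cholangiocytes (1 of 4, 0 to 3.07 and 0 to 1.61 RPKM). None of the markers in the table was at 0 in all 6 livers. In bulk tissue, fewer cells of a type and less RNA per cell cannot be told apart.

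Eif1 lies at chr11:100319885-100322096 on the plus strand of GRCm38, and many copies of its coding sequence are spread over the genome. The annotation holds 20 other genes with a transcript at least 90% identical over at least 80% of the 342 coding bases. Of these, 15 have a row in the table, 14 processed pseudogenes and 1 protein-coding gene, Emd, which encodes emerin of the nuclear envelope. Their identity to Eif1 ranged from 92.17% to 98.25%. Emd, at a mean of 1.14 RPKM, and the pseudogene Gm14686 are both on the X chromosome. They had the same identity (96.79%) and coverage (99.12%). Whether both hold the same stretch of sequence, which would then be counted more than once among the copies, was not tested. Eif1b, a paralog that encodes a close relative of eIF1, was 81.29% identical to Eif1 and below the limit of 90%. The first 150 coding bases, from the GENCODE transcripts, are shown for Eif1, Gm16378, Gm4017 and Eif1b. Gm16378 is the copy of highest level and Gm4017 a copy on the Y chromosome. The window shows which bases there set a short read from Eif1 apart, and other stretches may differ at more or fewer bases. Capitals mark bases that differ from Eif1.
Eif1: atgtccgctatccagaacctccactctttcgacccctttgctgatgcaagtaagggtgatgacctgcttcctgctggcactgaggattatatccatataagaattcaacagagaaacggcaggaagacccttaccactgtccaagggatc
Gm16378: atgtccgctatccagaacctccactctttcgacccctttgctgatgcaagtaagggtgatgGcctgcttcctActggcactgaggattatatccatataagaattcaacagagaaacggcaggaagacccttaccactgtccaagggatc
Gm4017: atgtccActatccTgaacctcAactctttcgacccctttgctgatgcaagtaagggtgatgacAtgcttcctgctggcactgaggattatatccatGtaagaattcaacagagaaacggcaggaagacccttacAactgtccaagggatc
Eif1b: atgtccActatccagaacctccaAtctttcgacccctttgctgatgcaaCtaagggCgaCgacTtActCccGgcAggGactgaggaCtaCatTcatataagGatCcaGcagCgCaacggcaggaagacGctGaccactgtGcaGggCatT
Within this window Gm16378 (chr8:122841731-122842072, plus strand) differs from Eif1 at 2 bases, Gm4017 (chrY:1268548-1268885, minus strand) at 6, and Eif1b (chr9:120492232-120495330, plus strand) at 25. Over the whole aligned coding sequence, Gm16378 was 97.37% and Gm4017 94.1% identical to Eif1.

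Several copies had levels below that of Eif1 in conF1-F and above it in iAsF1-F. Gm16378 lay at 28.1, 25.004 and 31.3 RPKM in conF1-F and 34.6, 28.3 and 24.2 RPKM in iAsF1-F. Gm10157, the copy of highest identity, lay at 25.7, 28.1 and 30.1 RPKM in conF1-F and 29.3, 27.5 and 27.3 RPKM in iAsF1-F. Neither showed the separation of the groups seen for Eif1, and the groups overlapped for all 15 copies. In all, 14 copies had a mean of at least 1 RPKM and 4 a mean of at least 10 RPKM.

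Summed over the 15 copies, the level was 129.4, 144.7 and 145.8 RPKM in conF1-F and 163.5, 132.8 and 133.7 RPKM in iAsF1-F. The means were 140 ± 9.18 and 143 ± 17.5 RPKM (SD, n = 3 each), and the ranges overlapped. Eif1 held 23.4%, 25.3% and 23.9% of the sum of Eif1 and its copies in conF1-F and 3.73%, 3.36% and 2.99% in iAsF1-F. With the copies added, Eif1 reached 168.9, 193.7 and 191.6 RPKM in conF1-F and 169.9, 137.4 and 137.8 RPKM in iAsF1-F, which overlap. The means were 185 ± 13.7 and 148 ± 18.6 RPKM (SD, n = 3 each). The difference was -0.32 on the log2(RPKM + 1) scale. Adding copies of like level in both groups shrinks a log2 difference however reads were assigned, so this value cannot show how they were. The Y-linked copy Gm4017 lay at 2.66, 1.38 and 1.85 RPKM in conF1-F and 1.96, 2.07 and 2.36 RPKM in iAsF1-F, in livers labelled female. The female transcript Xist was present in every liver at 18.4 to 27.6 RPKM. How reads that match several copies were assigned is not given in the sources used here, and its part in the Eif1 values was not tested.

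**Figure D1:**
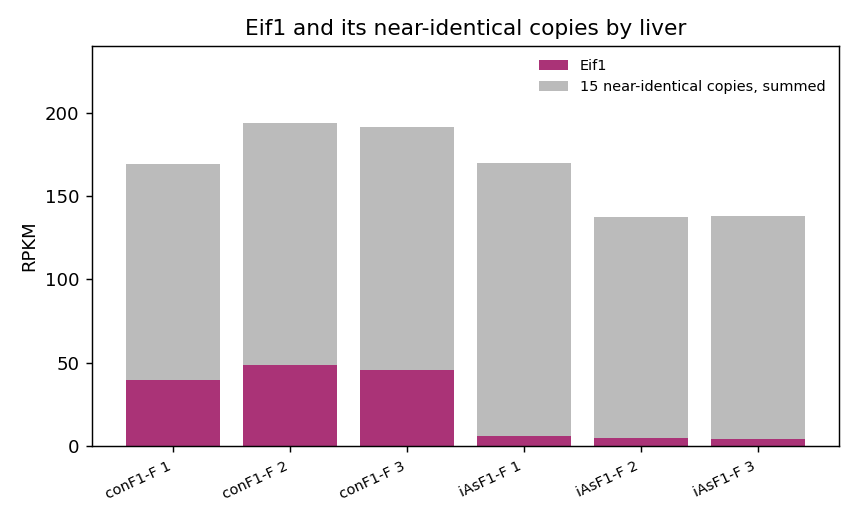
RPKM (y axis) of Eif1 (purple) and of its 15 near-identical copies summed (grey), stacked for each of the 3 conF1-F and 3 iAsF1-F livers (x axis). The purple part is 39.5 to 48.9 RPKM in conF1-F and 4.12 to 6.33 RPKM in iAsF1-F, while the grey part is 129.4 to 145.8 and 132.8 to 163.5 RPKM.

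The genes next to Eif1 in name or role gave no such difference. Eif1b lay at 12.5, 12.3 and 14.4 RPKM in conF1-F and 11.8, 11.7 and 13.7 RPKM in iAsF1-F, a log2 difference of -0.07 (SE 0.11, limma adjusted p = 0.894, exact permutation p = 0.5). Eif1ax, the X-linked gene of eIF1A, lay at 3.003, 2.79 and 3.21 RPKM in conF1-F and 2.81, 2.95 and 3.56 RPKM in iAsF1-F, a log2 difference of 0.04 (SE 0.13, limma adjusted p = 0.994, exact permutation p = 0.8). In both genes the groups overlapped and all livers were close. Eif1ad, whose product carries an eIF1A-like domain, lay at 4.97, 5.35 and 3.06 RPKM in conF1-F and 5.99, 4.17 and 4.70 RPKM in iAsF1-F, a log2 difference of 0.14 (SE 0.22, limma adjusted p = 0.906, exact permutation p = 0.7). Eif1ad overlaps Banf1 in the genome, and reads of overlapping genes may be shared. With 3 against 3 livers the two-sided permutation test cannot give a p below 0.1.

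Eif1a, a second gene for eIF1A on chromosome 18, was either near 12 to 14 RPKM or listed at 0. It lay at 12.05, 0 and 14.1 RPKM in conF1-F and 0, 0 and 12.4 RPKM in iAsF1-F. The log2 difference was -1.30 (SE 1.54, limma adjusted p = 0.877, exact permutation p = 0.7), and with 1 library left out it ran from -2.57 (conF1-F replicate 2) to -0.61 (conF1-F replicate 3). Values of 0 occurred in both groups, and since genes that every cell uses were also at 0 in single livers, they are given only as listed.

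**Figure D2:**
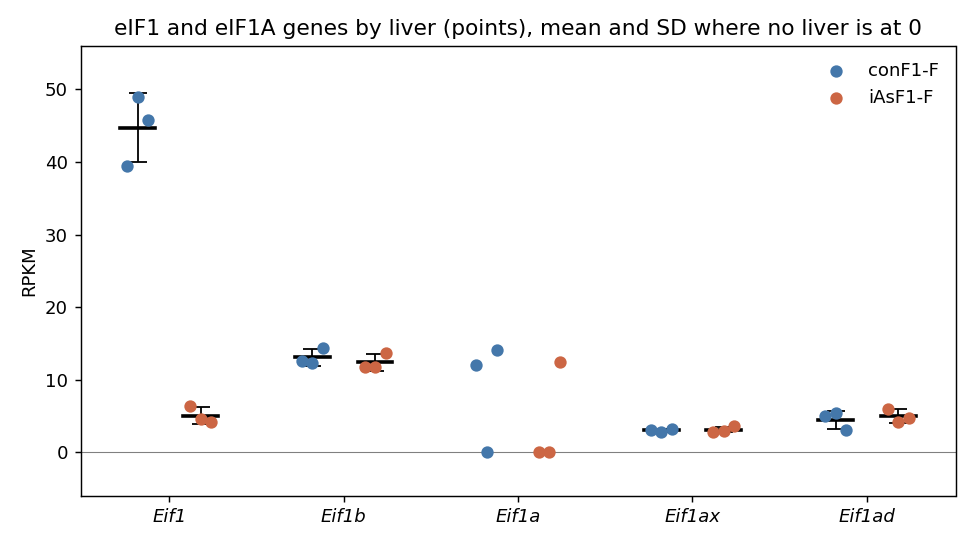
RPKM (y axis) of the 5 genes of eIF1 and eIF1A (x axis) in each conF1-F (blue) and iAsF1-F (orange) liver, with the mean and SD of 3 livers where no liver is at 0. Eif1 separates the groups, at 39.5 to 48.9 against 4.12 to 6.33 RPKM, and the other 4 genes overlap, with Eif1a at 0 in 3 of the 6 livers.

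Across the pathway, 40 of the 50 genes had a mean of at least 1 RPKM and were tested with all 6448 such genes by limma on log2(RPKM + 1). At an adjusted p under 0.05, 1 of the 40 passed, Eif1, where 16 of 6448 genes (0.248%) passed, 8 higher (0.124%) and 8 lower (0.124%) in iAsF1-F. Nothing is read from that count, since the call of Eif1 uses the values that put it forward. Of the other 39 genes 0 passed, 1 had an unadjusted limma p under 0.05 (5.12% of all tested genes did), and the smallest adjusted p was 0.877. Without Eif1, the 39 genes had a median log2 difference of -0.07, with 14 above and 25 below 0. The median over the whole set of tested genes was -0.00147, with 3205 above and 3243 below 0. Separate groups were found in 2 of these 39, Eif3j1 and Eif6, both lower in iAsF1-F. Of the 6448 genes, 11.5% had such separate groups, 5.71% lower and 5.83% higher in iAsF1-F.

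**Figure D3:**
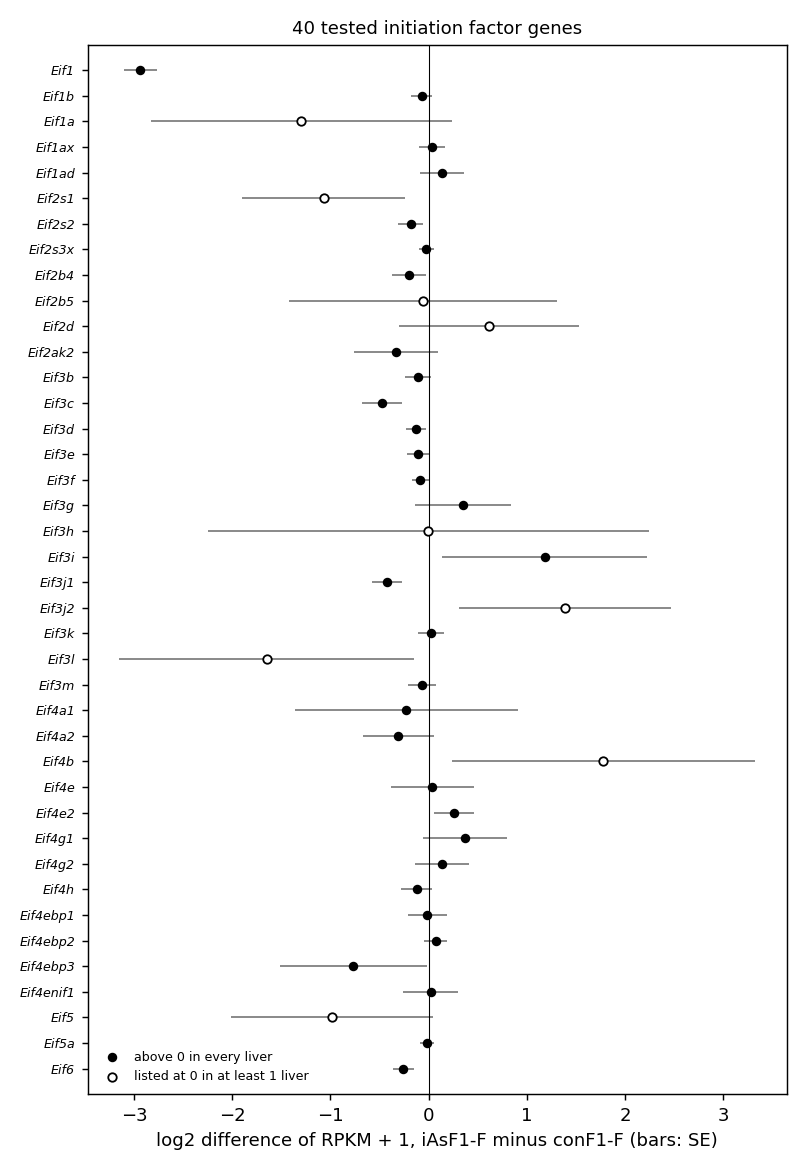
Log2 difference of RPKM + 1, iAsF1-F minus conF1-F (x axis), with its limma SE (bars), for the 40 tested genes (y axis) in order of complex. Open circles are genes listed at 0 in at least 1 liver. Eif1 stands at -2.94, and the other filled circles lie between -0.77 for Eif4ebp3 and 1.18 for Eif3i.

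The next 6 genes by limma p did not pass, each with an adjusted p of 0.877. Eif3j1, a loosely bound eIF3 subunit gene, lay at 3.09, 4.36 and 3.26 RPKM in conF1-F and 2.54, 2.21 and 2.39 RPKM in iAsF1-F, with a log2 difference of -0.43 (SE 0.15, limma adjusted p = 0.877, exact permutation p = 0.1). Eif6, whose product keeps the large subunit from joining too early, lay at 13.1, 11.3 and 11.4 RPKM in conF1-F and 9.59, 9.003 and 10.9 RPKM in iAsF1-F, with a log2 difference of -0.26 (SE 0.11, limma adjusted p = 0.877, exact permutation p = 0.1). All 3 iAsF1-F livers were below all 3 conF1-F livers in both genes, with gaps far smaller than for Eif1. Eif3c, a core subunit of eIF3, lay at 20.5, 13.8 and 22.8 RPKM in conF1-F and 12.2, 12.5 and 14.8 RPKM in iAsF1-F, and overlapped (-0.47, SE 0.20, exact permutation p = 0.2). Eif2s2, the beta subunit of eIF2, had a log2 difference of -0.18 (SE 0.13, exact permutation p = 0.3) and Eif3d, an eIF3 subunit that can bind the cap of some mRNAs, one of -0.13 (SE 0.10, exact permutation p = 0.3). Eif4e2, a cap-binding protein that represses translation, was the 1 gene of the 6 above 0, at 0.26 (SE 0.20, exact permutation p = 0.3).

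The trimer eIF2 carries the initiator tRNA, eIF2B reloads it with GTP, and 4 kinases stop the cycle by phosphorylating its alpha subunit. Of these 13 genes 7 were tested and 0 passed, with a median log2 difference of -0.18 and 6 of 7 below 0. Eif2s3x, the gamma subunit on the X chromosome, had the highest mean RPKM and was even across livers, at 11.4, 11.6 and 12.6 RPKM in conF1-F and 11.4, 11.8 and 11.7 RPKM in iAsF1-F. Eif2s2 lay at 5.60, 5.34 and 6.14 RPKM in conF1-F and 4.23, 4.91 and 5.63 RPKM in iAsF1-F. Eif2s1, the alpha subunit, lay at 5.71, 6.56 and 7.85 RPKM in conF1-F and 4.64, 0 and 7.68 RPKM in iAsF1-F. Eif2s3x was above both other subunits in every liver. Summed over entries, the means over the 6 livers were 23.5 RPKM for Eif2s3x, 15.9 RPKM for Eif2s2 and 5.41 RPKM for Eif2s1. The processed pseudogene Gm2223, 100% identical over 95.14% of the Eif2s3x coding sequence, had a mean of 17.7 RPKM. Gm9892, 99.5% identical to Eif2s2, had a mean of 19.3 RPKM, and Gm12734, 96.84% identical to Eif2s1, one of 1.16 RPKM. How reads shared with these copies were assigned was not tested, so the order of the subunits is uncertain.

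Of the eIF2B subunits, Eif2b5, the catalytic one, was listed at 0 in 1 liver of each group and lay at 0, 9.53 and 9.47 RPKM in conF1-F and 0, 8.14 and 9.77 RPKM in iAsF1-F. Eif2b2, Eif2b3 and Eif2b4 lay between 0.227 and 2.05 RPKM as deposited, with overlapping groups. Summed over entries, the order changed. The means over the 6 livers were then 10.1 RPKM for Eif2b4, 6.15 RPKM for Eif2b5, 5.78 RPKM for Eif2b2 and 1.65 RPKM for Eif2b3. Eif2d, which acts in recycling and reinitiation, lay at 0, 5.54 and 0.338 RPKM in conF1-F and 3.10, 0.338 and 4.75 RPKM in iAsF1-F. Eif2a, for an alternative carrier of initiator tRNA, stayed at or below 0.522 RPKM.

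As deposited, the kinase genes lay at or below 3.14 RPKM in every liver. Summed over entries, Eif2ak2 reached 12.6 RPKM in conF1-F replicate 2 and Eif2ak1 5.11 RPKM in iAsF1-F replicate 2. Eif2ak1, the heme-regulated kinase, lay at 0.831, 0.288 and 0.640 RPKM in conF1-F and 1.26, 1.70 and 1.24 RPKM in iAsF1-F. These groups did not overlap, but the mean of 0.993 RPKM was under the limit for testing. Eif2ak2, the kinase that senses double-stranded RNA, lay between 0.534 and 3.14 RPKM, Eif2ak3, the kinase of the endoplasmic reticulum, between 0.307 and 0.763 RPKM, both with overlapping groups. Eif2ak4, the kinase that senses uncharged tRNA, was listed at 0 in all conF1-F livers and at 0.420, 0.686 and 0 RPKM in iAsF1-F, so no fold is given.

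All 13 eIF3 genes were tested, 0 passed, and the median log2 difference was -0.08 with 9 of 13 below 0. Eif3b, a core scaffold subunit, had the highest mean RPKM as deposited, at 34.9, 31.4 and 43.2 RPKM in conF1-F and 32.1, 32.9 and 35.6 RPKM in iAsF1-F. Summed over entries, Eif3g was higher, at a mean of 38.9 RPKM beside 35.0 RPKM for Eif3b. As deposited, Eif3e and Eif3d followed Eif3b among subunits above 0 in every liver, at means of 30.2 and 28.7 RPKM over the 6 livers. Summed over entries, Eif3c lay above these 2 at 32.2 RPKM. Eif3f, Eif3g, Eif3k and Eif3m had means of 7.29 to 9.73 RPKM as deposited. These groups overlapped in every gene, and Eif3j1 was the single eIF3 gene whose groups did not.

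The remaining eIF3 genes changed by whole levels between single livers in a way the groups do not follow. Eif3h lay at 0, 45.2 and 0 RPKM in conF1-F and 44.9, 0 and 0 RPKM in iAsF1-F. Eif3l lay at 32.9, 33.6 and 35.5 RPKM in conF1-F and 0, 36.4 and 36.1 RPKM in iAsF1-F. Each of these was thus either listed at 0 or at a level usual for an eIF3 subunit. Eif3i lay at 0.222, 0.177 and 0.196 RPKM in conF1-F and 0.207, 13.1 and 0.181 RPKM in iAsF1-F, 74.4 times higher in the highest than in the lowest liver.

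The value of Eif3i is, by its decimals, a mean over 3 entries, and their sum reached 39.4 RPKM in that 1 iAsF1-F liver. On this summed scale, RPKM times the number of entries, the highest level of each of the 11 eIF3 subunits other than the 2 eIF3j genes lay between 16.9 RPKM (Eif3k) and 50.9 RPKM (Eif3g), within 3.01-fold. For 8 of the 11 the highest liver was less than 5 times the lowest, and Eif3h, Eif3i and Eif3l were the exceptions. This scale was chosen after the values were seen, and a highest liver is by its choice a liver where the gene is high.

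The 2 eIF3j genes share their coding sequence, with 100% identity over the 99.75% of Eif3j1 that aligned. Eif3j2, on chromosome 18, lay at 2.97, 0 and 0 RPKM in conF1-F and 5.32, 10.3 and 0 RPKM in iAsF1-F. Eif3j1 was above 0 in every liver, and its lower values in iAsF1-F stand beside an Eif3j2 that was higher in 2 of the 3 iAsF1-F livers than in any conF1-F liver. Reads of the pair could be split between them, so both are uncertain.

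The eIF4 group recognises the cap through eIF4E, bridges it to the ribosome through eIF4G and unwinds RNA through eIF4A, while the 4E-binding proteins hold eIF4E back when mTOR is inactive. Of its 15 genes 12 were tested and 0 passed, with a median log2 difference of 0.03. Eif4ebp2, a 4E-binding protein, had the highest mean RPKM as deposited of all 50 genes, at 53.4, 54.6 and 42.4 RPKM in conF1-F and 55.5, 50.1 and 52.0 RPKM in iAsF1-F. Summed over entries it ranked 3. Eif4ebp1, of the same family, had a mean of 7.95 RPKM with overlapping groups. The third, Eif4ebp3, lay at 6.85, 3.74 and 26.0 RPKM in conF1-F and 9.17, 4.69 and 2.51 RPKM in iAsF1-F. It was highest in 1 conF1-F liver, and the groups overlapped.

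Among the cap-binding and scaffold genes, Eif4e lay between 0.540 and 3.15 RPKM, and Eif4e2 at 2.46, 1.44 and 2.81 RPKM in conF1-F and 2.99, 2.72 and 2.74 RPKM in iAsF1-F. Eif4e3 was listed at 0 in 5 livers and at 1.73 RPKM in 1 iAsF1-F liver. Eif4g1, the main scaffold, lay between 1.40 and 6.62 RPKM, and between 9.83 and 46.3 RPKM summed over its 7 entries. Eif4g3 lay between 0.399 and 1.49 RPKM, and Eif4g2, a scaffold that does not bind eIF4E, between 6.47 and 12.7 RPKM. Eif4enif1, which brings eIF4E to the nucleus and to RNA granules, had a mean of 1.12 RPKM. Groups overlapped in each of them.

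For the helicase and its cofactors the picture was again set by single livers. Eif4a1, the main helicase, lay at 0.425, 0.586 and 9.08 RPKM in conF1-F and 0.300, 0.228 and 7.93 RPKM in iAsF1-F. It was high in 1 liver of each group, and the highest was 39.9 times the lowest. Summed over its 9 entries these values were 3.82, 5.27 and 81.7 RPKM in conF1-F and 2.70, 2.05 and 71.3 RPKM in iAsF1-F. A processed pseudogene, Eif4a-ps4, lay at 53.9, 49.3 and 65.0 RPKM in conF1-F and 49.5, 47.0 and 51.5 RPKM in iAsF1-F, even across livers. Its sequence differs from the coding sequence of Eif4a1, 1221 bases long, at 1 aligned base, coding position 534, shown in capitals in the window of coding bases 505 to 564.
Eif4a1: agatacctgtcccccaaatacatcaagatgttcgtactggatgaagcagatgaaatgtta
Eif4a-ps4: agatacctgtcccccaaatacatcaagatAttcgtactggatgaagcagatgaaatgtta
Eif4a1 lies at chr11:69666936-69672423 on the minus strand and Eif4a-ps4 at chr1:60703932-60705149 on the plus strand of GRCm38. Within the aligned coding sequence, a read that does not cover that base cannot tell the 2 apart, and how such reads were counted was not tested.

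Eif4a2, the second helicase, lay between 0.871 and 2.86 RPKM and Eif4a3, the helicase of the exon junction complex, between 0.453 and 0.704 RPKM, with overlapping groups. Summed over its 18 entries, Eif4a2 lay between 15.7 and 51.5 RPKM. Its summed mean over the 6 livers was 28.7 RPKM, beside 27.8 RPKM for Eif4a1. Eif4b, a cofactor of the helicase, was listed at 0 in 5 livers and at 39.4 RPKM in 1 iAsF1-F liver. Eif4h, the other cofactor, was even, between 7.42 and 10.9 RPKM.

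The last group takes in factors that act before, at or after the joining of the subunits. Of its 4 genes 3 were tested, with 0 past the threshold and all 3 below 0. Eif5a, which needs hypusine and helps ribosomes through difficult peptide bonds, had the highest mean RPKM of the 4, at 30.2, 29.8 and 32.8 RPKM in conF1-F and 29.6, 29.8 and 32.4 RPKM in iAsF1-F. Its highest liver was 1.11 times its lowest, and summed over its entries it ranked 1 of the 50 genes at 154 RPKM, followed by Eif4g2 at 93.4 RPKM. Eif5, which triggers GTP hydrolysis on eIF2, lay at 0, 9.98 and 0 RPKM in conF1-F and 0, 0 and 0.427 RPKM in iAsF1-F. Eif5b, the GTPase of subunit joining, was below the limit for testing at a mean of 0.632 RPKM.

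**Figure D4:**
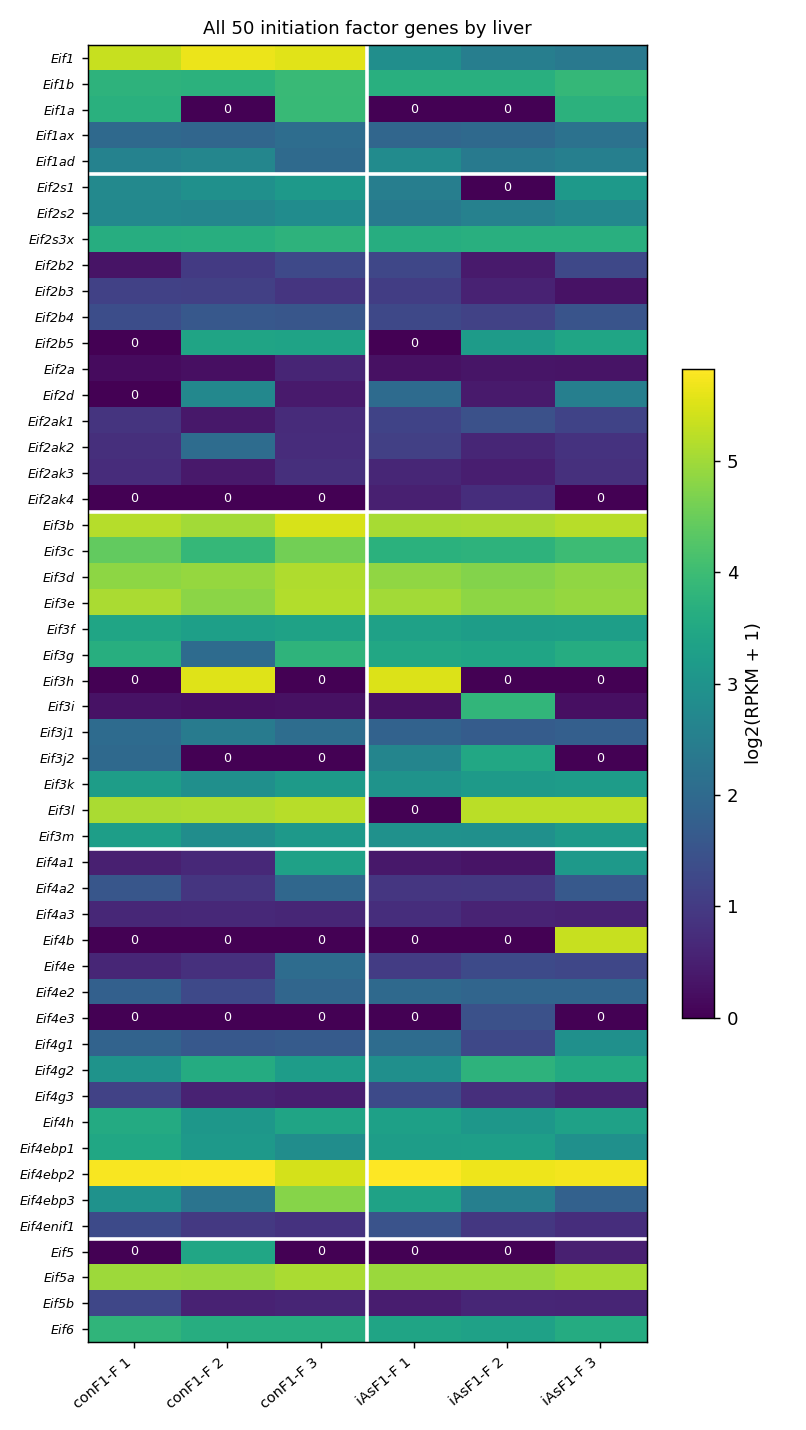
Level as log2(RPKM + 1) (colour) of all 50 initiation factor genes (rows, in order of complex, separated by white lines) in the 3 conF1-F and 3 iAsF1-F livers (columns), with values listed at 0 marked. The groups are separate for Eif1 in the top row and, by smaller amounts, for Eif3j1, Eif6 and Eif2ak1, while Eif3h, Eif3i, Eif3l, Eif4a1 and Eif4b switch between single livers.

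Large jumps between livers were about as frequent in these genes as in all tested genes. The highest liver was at least 5 times the lowest in 15 of the 40 tested genes (37.5%), beside 2056 of 6448 tested genes (31.9%). In 14 of these 15 the groups overlapped, and the other is Eif1, which was selected for its separation. Among the 2056 genes, 180 (8.75%) had groups that did not overlap, 92 higher and 88 lower in iAsF1-F. At the other end, the highest liver was under 1.5 times the lowest in 14 of 40 genes (35.0%) and in 35.6% of all tested genes.

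A value of 0 in 1 or more livers was found for 11 of the 50 genes, and each liver had 4 to 7 of them. This was so for 9 of the 40 tested genes (22.5%), beside 19.6% of all tested genes. These shares differed with the number of entries behind a value. Among tested initiation factor genes with 1 entry, 8 of 19 (42.1%) were listed at 0 in some liver, and among those with 2 or more entries 1 of 21 (4.76%). Over all tested genes these shares were 24.4% and 14.0%. Eif1 has 1 entry and was above 0 in every liver.

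Ordered by mean RPKM as deposited over the 6 livers, the 50 genes ran from Eif4ebp2 at 51.4 RPKM to Eif2ak4 at 0.184 RPKM. Each of the 49 neighbouring pairs in this order had overlapping ranges over the livers, so no neighbours were told apart.

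Genes that work with the initiation factors were read as a list of 44, of which 35 were in the table and 27 were tested. Of the 27, 0 passed and 0 had an unadjusted limma p under 0.05, with a median log2 difference of 0.02 and 15 above and 12 below 0. By role, the 13 tested partners and regulators had a median of 0.02, the 5 genes of the eIF2alpha stress pathway -0.16, the 7 elongation genes 0.08 and the 2 genes of termination and recycling -0.29. The 3 of smallest p, each with a limma adjusted p of 0.877, were Abce1, Etf1 and Atf4. Abce1, which splits ribosomes after termination, lay at 5.31, 4.49 and 6.41 RPKM in conF1-F and 4.23, 4.96 and 3.72 RPKM in iAsF1-F (log2 difference -0.27, SE 0.16, exact permutation p = 0.2). Etf1, the release factor that reads stop codons, lay at 8.44, 8.94 and 9.36 RPKM in conF1-F and 10.2, 9.91 and 9.50 RPKM in iAsF1-F, without overlap (0.13, SE 0.08, exact permutation p = 0.1). Atf4, the transcription factor translated when eIF2alpha is phosphorylated, lay at 47.7, 49.4 and 48.3 RPKM in conF1-F and 42.3, 43.1 and 48.7 RPKM in iAsF1-F (-0.12, SE 0.07, exact permutation p = 0.3). Levels of Atf4 mRNA do not measure its translation.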

How the data were processed

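Hepatic RNA of 3 conF1-F and 3 iAsF1-F mice was compared. The authors deposited RPKM values for each library, and the notes of the submitters on processing list mm10 as genome and, among the tools, DESeq2 1.8.2, STAR 2.5.3a and HTSeq. The program behind the RPKM values and its treatment of reads with several matches are not given in the sources used here. The table of the whole series and those of single libraries agreed in each of 105744 cells. In them 13 date-like cells were converted back to numbers, and 13 date-like symbols were replaced through their Ensembl IDs. By its decimals (tolerance 0.002 of the last decimal), the value of 5501 genes (31.2%) was a mean over 2 or more entries, as for 30 of the 50 members. In all 50 the entries were no more than the annotated transcripts, and in 41 they were fewer.

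The members and lists were chosen with earlier results of these data known. A gene was tested where its mean over the livers reached 1 RPKM. The test was that of limma 3.58.1 (R 4.3.3) on log2(RPKM + 1), with a term for the group alone and a variance trend, and Benjamini-Hochberg adjusted p-values cover all 6448 genes. Single genes were also compared by two-sided exact permutation tests. As the values are not counts, count models were not run. Relative depth was estimated from values under 0.15 RPKM. Fold changes on this scale understate those of low genes. P-values measure the spread between these livers.

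Values in every liver are given for the eIF1 and eIF1A genes, genes that passed, the highest gene of each complex and genes listed at 0. Statistics are given for the eIF1 and eIF1A genes and the next 6 by p, and for the 3 companion genes of smallest p. Other values by liver, for members among those 6 and for Eif3i, Eif4a1, Eif4ebp3, Eif2ak1 and the copies, were chosen after the values were seen. Copies were sought by blastn 2.17.0 of 49 complete coding sequences against GENCODE M21 transcripts of GRCm38 (at least 90% identity and 80% coverage), which also supplied the sequences. Values were read with Python 3.11.15 and pandas 2.3.3. Alternatives were pseudocounts of 0.1 and 0.01, other filters (none, 5 RPKM, no gene at 0), 3 rescalings, a replicate block, each library left out, a robust variance, no trend and a threshold of 0.1. The sum over entries and the sum of Eif1 with its copies were added after seeing the data.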

Additional observations from a re-analysis of the deposited data

How the results depend on the processing

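The number of initiation factor genes past the threshold was 1, as reported, under every other setting run than the replicate block. This is no support for Eif1, which was selected from the same values, and its sum with its copies was not tested. With the replicate number as a block, which leaves few degrees of freedom, 0 of 40 initiation factor genes and 0 of all tested genes passed. Whether the numbers pair the livers is not known. Same-numbered livers of the 2 groups deviated from their group means with correlations of -0.07, 0.02 and 0.01. Such low values cannot show that the numbers carry no shared litter or day. The number of all tested genes that passed, 16 as reported, was 1 with a mean of at least 5 RPKM, 5 with genes listed at 0 left out and 26 to 38 with 1 library left out. With a pseudocount of 0.01 it was 11, of which 7 were higher and 4 lower, beside 8 and 8. The cause was not tested.

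The log2 difference of Eif1 stayed between -3.17 (pseudocount 0.01) and -2.83 over 18 settings, and was -0.32 when summed with its copies, an alternative chosen after seeing the data. With 1 library left out, Eif1ax ranged from -0.042 (without iAsF1-F replicate 3) to 0.086, with -0.00317 without conF1-F replicate 2, and Eif1ad from -0.060 (without conF1-F replicate 3) to 0.263. Eif1a, listed at 0 in 3 livers, went from -0.61 (without conF1-F replicate 3) to -3.48 (pseudocount 0.01), and Eif4e2 from 0.07 (without conF1-F replicate 2) to 0.39. Of 228 alternative values for the 13 other named genes, 225 kept direction and side of the threshold, and the smallest adjusted p in limma was 0.320, for Eif3c. The read numbers are unknown, and the size of a difference that 3 livers a group can show was not measured. DESeq2 and edgeR were not run because the values are RPKM.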

Other observations

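Other initiation factor genes had near-identical copies in the table too. Counted over the 49 genes with a complete coding sequence, 21 had at least 1 annotated copy, and 15 had 34 copies in the table. For Eif3m, a subunit of eIF3, the pseudogene Gm7658 (98.49% identical) had a mean of 10.4 RPKM, beside 7.29 RPKM for Eif3m. The value of Eif3m is a mean over 3 entries, and summed over them its mean was 21.9 RPKM. The deposited values thus do not order this pair. For Eif4e, the cap-binding protein, the pseudogene Gm7327 (98.62% identical) had a mean of 6.00 RPKM, beside 1.39 RPKM for Eif4e. Eif5al3-ps (97.23% identical to Eif5a) lay at 3.29, 11.8 and 5.17 RPKM in conF1-F and 11.4, 12.2 and 4.77 RPKM in iAsF1-F, while Eif5a itself was even.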
